A study of Mus musculus with 2 samples.

Results

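The Notch pathway was described through 35 genes chosen by symbol: 4 receptors, 5 canonical ligands, 2 non-canonical ligands, 7 target and related bHLH genes, 3 fringe glycosyltransferases, 4 genes of the nuclear complex, 4 Deltex ligases, 2 Numb adaptors and 4 proteases. Of these, 34 were among the 17431 genes with at least 1 read in either library, and Hes5 had 0 reads in both. Poly(A) RNA was sequenced from 1 culture of skin-derived precursors (SKPs), multipotent cells from the dermis of BALB/c mice at postnatal day 4. Their medium held 40 ng/ml of FGF2, 20 ng/ml of EGF and 2% of the serum-free supplement B27. The other library came from cultured BALB/c dermal fibroblasts of postnatal day 3 grown in DMEM with 10% fetal bovine serum. No genetic change or sort is given in the labels, and the sources used here give neither the number of animals per culture nor the passage. Medium, growth factors and age differed together with cell type and cannot be told apart from it.

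There was 1 library per cell type, so no test between SKPs and fibroblasts was possible and every difference is one between these 2 libraries. About 18949000 reads were counted on genes in the SKP library and about 18406000 in the fibroblast library. All 10 SKP markers checked were expressed in the SKP library, but all except Sox2 passed the filter in the fibroblast library too. Of these 10, 2 were called higher in SKPs, Sox2 and the neural progenitor filament gene Nes (28.2 RPKM against 6.30), and 0 lower, with ratios down to 0.538 for Snai2. All 8 fibroblast markers were expressed in both libraries. Levels are given in RPKM, reads scaled to the length of the gene and to the counted reads of the library, so that genes of different length can be set side by side. The ranges given in parentheses are exact 95% intervals from the read counts, and they do not cover variation between cultures.

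Notch receptors are single-pass membrane proteins that are activated by ligands on a neighbouring cell. Ligand binding lets an ADAM protease and then gamma-secretase cut the receptor, and the freed intracellular domain joins the DNA-binding protein RBPJ and a Mastermind-like coactivator to turn on genes of the Hes and Hey families. In skin the pathway is known for its part in epidermal differentiation, in the hair follicle and in the vessel wall.

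The summed receptor level was higher and the summed canonical ligand level lower in the SKP library. All 4 receptor genes exceeded the fibroblast level by 2-fold or more in SKPs, as did Rbpj, the coactivator gene Maml3, the ligase gene Dtx4, the sheddase gene Adam17 and the target gene Hey1. The ligand genes Jag1 and Dner and the glycosyltransferase gene Lfng were lower there by 2-fold or more. Hes1, the most abundant target in both libraries, was not 2-fold apart and had the lower level in the SKP library.

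Genes counted as expressed with RPKM 1 and 20 reads or above in either library, and as higher or lower where the ratio reached 2-fold and its interval left out equality. By this rule 26 of the 35 members were expressed, with 9 (34.6%) higher in SKPs, 3 (11.5%) lower and 14 called neither. Among all 12053 expressed genes 12.1% were higher and 6.41% were lower. Notch4, Dll1, Hey1 and Maml3 passed the filter through the SKP library alone and Dner and Dlk2 through the fibroblast library alone, so the filter itself favoured their direction. Among the 20 members that passed in both libraries 6 were higher and 2 were lower, beside 7.44% and 4.66% of the 10874 genes that passed in both. The authors' deposited filtered table lists 10 members as higher in SKPs and 3 as lower, beside 10.5% and 4.8% of the 17431 genes with a read. The median log2 ratio of SKP over fibroblast was 0.00 over the expressed members and -0.01 over all expressed genes. The members were chosen with earlier results of these data known, so these shares describe the list and are not a test of it.

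**Figure D1:**
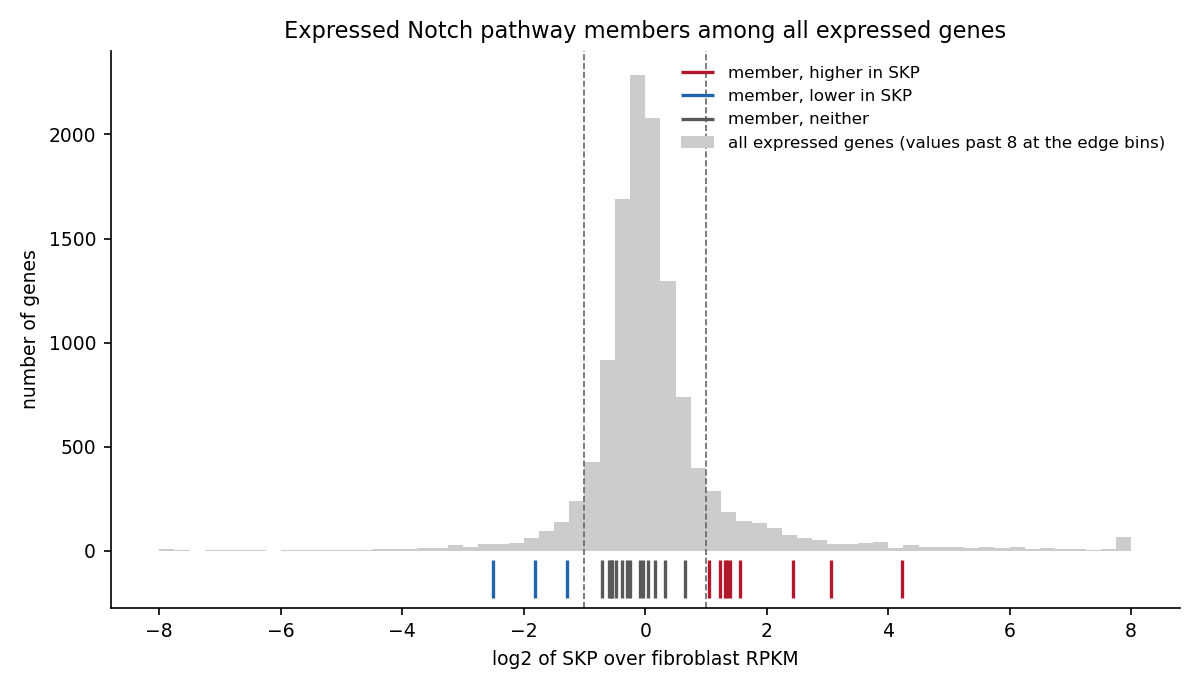
Number of expressed genes (vertical axis) by log2 of SKP over fibroblast RPKM (horizontal axis) as grey bars, with the 26 expressed members as ticks under the axis, coloured by call, and dashed lines at 2-fold. The 9 higher members lie between 2.08-fold and 18.7-fold, the 3 lower members between 2.45-fold and 5.68-fold, and 14 members sit between the lines.

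Notch2 was the most abundant receptor gene in both libraries, with 21.7 RPKM (4312 reads) in SKPs and 10.4 RPKM (2016 reads) in fibroblasts, a 2.08-fold difference (1.97 to 2.19). Notch1, known for its part in keratinocyte differentiation, had 7.84 RPKM in SKPs and 3.35 in fibroblasts and was 2.34-fold higher (2.12 to 2.58). Notch3, the receptor of vascular smooth muscle, had 5.13 RPKM in SKPs against 2.02 in fibroblasts and was 2.53-fold higher (2.21 to 2.91). These 3 receptors therefore stood between 2.08-fold and 2.53-fold, and the interval of Notch2 reached below 2-fold. It also ended below the interval of Notch3, while that of Notch1 overlapped both.

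Notch4, best known from endothelium, stood apart from the other receptors in its ratio. It had 173 reads in SKPs and 9 in fibroblasts, or 1.38 RPKM against 0.0740, an 18.7-fold difference (9.61 to 41.5). The reads of the SKP library lay over 62.1% of the length of the gene, below the 72.3% that even placement of them would cover. The count therefore did not come from a short stretch, although the reads were not evenly placed.

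The order of the receptors was the same in both libraries, Notch2 above Notch1 above Notch3 above Notch4, and each neighbouring pair in that order was apart by its counting interval. The summed receptor level was 36.0 ± 0.444 RPKM in SKPs and 15.9 ± 0.296 RPKM in fibroblasts (counting SE). Notch2 took 60.2% ± 0.617 of that sum in SKPs and 65.7% ± 0.91 in fibroblasts, and Notch4 took 3.84% ± 0.284 and 0.466% ± 0.155. The receptor sum was thus larger in SKPs, and Notch4 took a larger share of it there.

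Markers of other skin cells differed as well, in both directions. The 10 endothelial markers summed to 5.96 RPKM in SKPs and 2.34 in fibroblasts, and 1 of them, the endothelial cadherin gene Cdh5, was expressed, with 271 reads against 58. Below the filter, Kdr had 34 reads in SKPs against 55 in fibroblasts and Vwf 34 against 75, both lower in SKPs. Tek (37 reads in SKPs against 10), Erg (24 against 1) and Pecam1 were higher in SKPs. The interval of each of these genes left out equality, while those of Cldn5, Esam, Emcn and Tie1 included it. Of the defining endothelial genes, Pecam1 had 18 reads in SKPs and 5 in fibroblasts and Tie1 had 1 in each, so none was at 0. The 12 keratinocyte markers summed to 38.4 RPKM in SKPs and 4.13 in fibroblasts, with 7 of 7 expressed markers higher, among them Krt14 at 13.4 RPKM against 0.970, and Krt1 and Ivl had 0 fibroblast reads. The 11 mural markers summed to 319 RPKM in SKPs and 2834 in fibroblasts, with 2 of 9 expressed markers higher and 5 lower. The higher ones were Rgs5 and Des. The lower ones were Acta2 (41.0 RPKM against 1953), Tagln (9.15 against 585), Cnn1, Myh11 and Mcam, and Acta2 and Tagln made up most of the fibroblast sum. Of the defining mural genes, Rgs5 had 37 reads against 5, Kcnj8 4 against 3 and Abcc9 24 against 19. Kcnj8 and Abcc9 lay below the filter. The 10 leukocyte markers summed to 33.4 RPKM against 5.57, with 5 of 5 expressed markers higher, among them Laptm5 at 111 reads against 30. The 7 mast cell markers summed to 83.1 RPKM against 0.241 with 6 markers higher. The 7 adipocyte markers summed to 533 RPKM against 352, with 5 higher, among them Adipoq at 35.5 RPKM against 0.176, and 1 lower, Lpl at 149.6 RPKM against 321. The part of these cells in the receptor levels was not tested. In RNA of a whole culture, fewer cells of a type and less RNA per cell cannot be told apart.

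**Figure D2:**
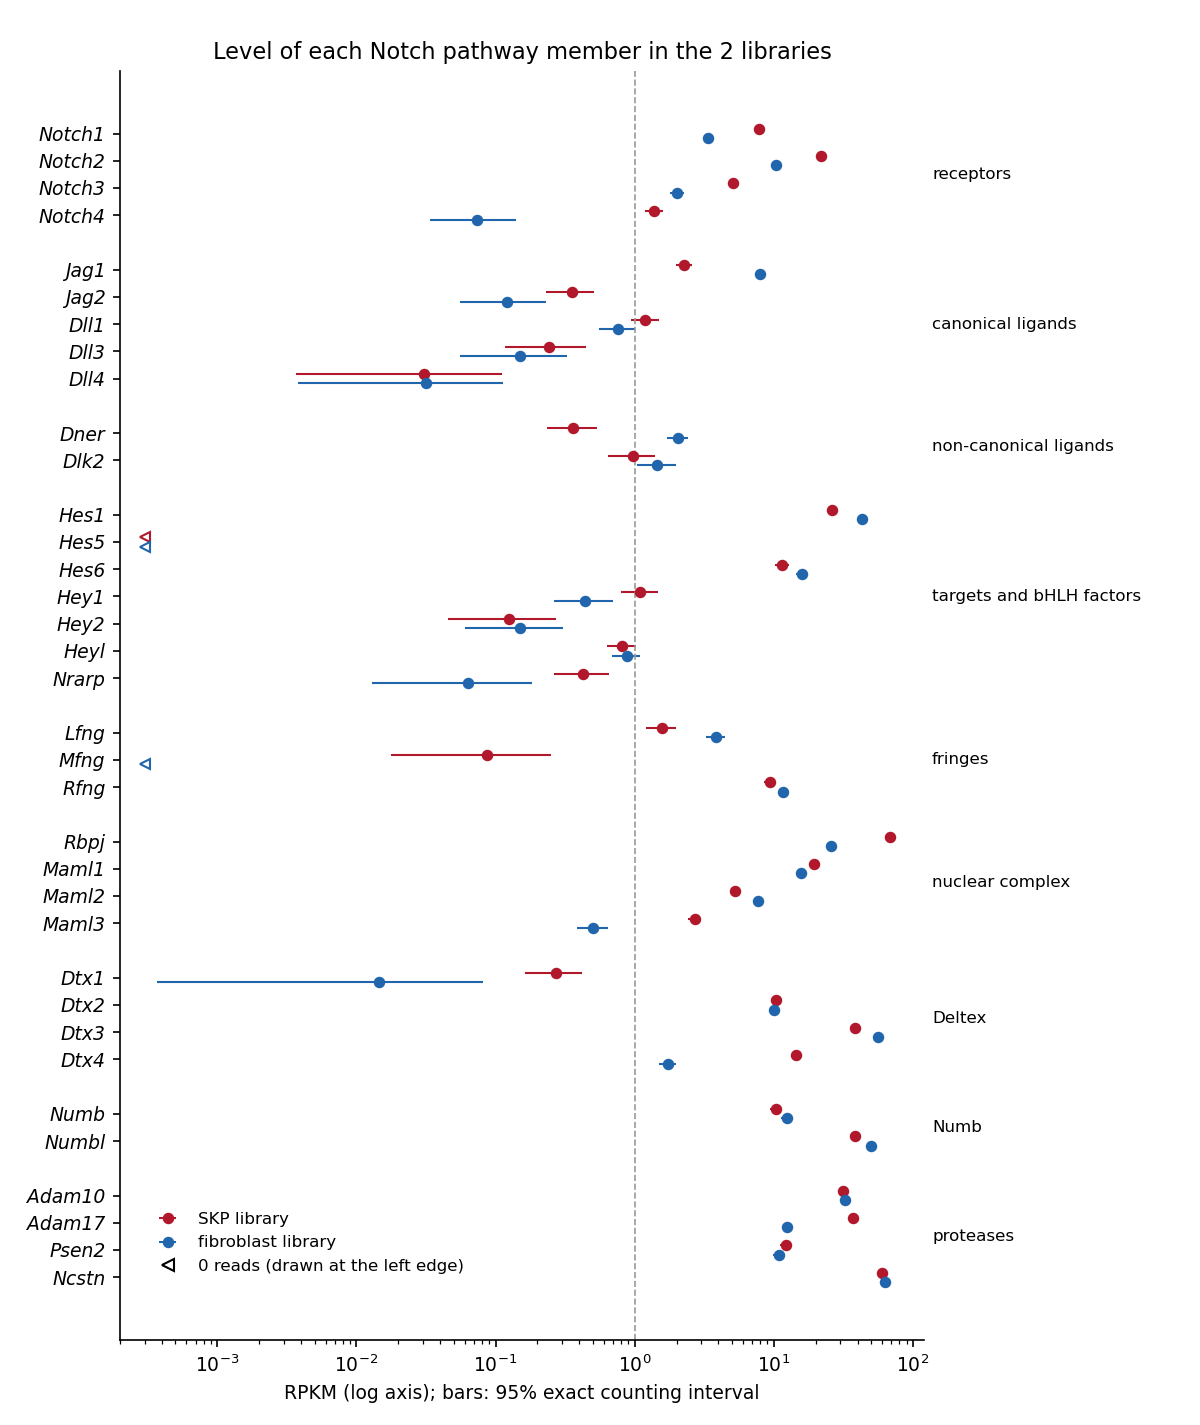
RPKM of each member on a log axis (horizontal) in the SKP library (red) and the fibroblast library (blue), with 95% exact counting intervals as bars, members grouped by role down the page, open triangles for 0 reads and a dashed line at RPKM 1. The 4 receptors lie to the right in the SKP library, while Jag1, Dner and Lfng lie to the right in the fibroblast library.

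Canonical ligands carry the DSL domain that binds Notch, and their summed level was below that of the receptors in both libraries, although Jag1 alone was above Notch4 in SKPs and above Notch1, Notch3 and Notch4 in fibroblasts. Jag1, a Serrate-type ligand, had 235 reads in SKPs and 805 in fibroblasts. At 2.26 RPKM against 7.96 it was 3.53-fold lower in the SKP library (3.05 to 4.10, fibroblast over SKP), and it ranked 10376 of 12053 expressed genes by RPKM in SKPs and 6738 in fibroblasts. Dll1, a Delta-type ligand, had 1.2 RPKM in SKPs and 0.757 in fibroblasts, a ratio of 1.58 (1.09 to 2.31), and was not 2-fold apart. Jag1 was thus the 1 canonical ligand gene called apart.

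The other canonical ligands did not reach the expression filter in either library. Jag2 had 27 reads in SKPs and 9 in fibroblasts, a ratio of 2.91 (1.33 to 7.04). Dll4, the ligand of sprouting endothelium, had 2 reads in each library, and its ratio of 0.971 had an interval from 0.0704 to 13.4. Dll3, which differs from the other Delta-type ligands in that it does not activate Notch on neighbouring cells, had 10 reads in SKPs and 6 in fibroblasts. Its 6 fibroblast reads covered only 54.9 bases and its 10 SKP reads 174 bases of a gene of 2163 bases, so they came from a small part of the gene.

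The summed level of the 5 canonical ligands was 4.08 ± 0.226 RPKM in SKPs and 9.02 ± 0.311 RPKM in fibroblasts (counting SE). Jag1 made up 55.4% ± 2.83 of it in SKPs and 88.3% ± 1.36 in fibroblasts, and Dll1 29.3% ± 2.68 and 8.39% ± 1.14. The canonical ligand pool of the SKP library was therefore smaller and less dominated by Jag1. Within it Jag1 and Dll1 were apart by their counting interval in each library, whereas Jag2 and Dll3 were not.

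Non-canonical ligands lack the DSL domain. Dner, a transmembrane EGF-repeat protein of neurons, had 25 reads in SKPs and 138 in fibroblasts, or 0.360 RPKM against 2.05, and was 5.68-fold lower in the SKP library (3.69 to 9.09, fibroblast over SKP). Dlk2, a membrane protein with EGF repeats, had 28 reads against 41, at 0.965 RPKM against 1.45, and the interval of its ratio (0.663, 0.395 to 1.10) included equality. Its relative Dlk1, outside the chosen members, went the other way, with 196 RPKM in SKPs and 1.85 in fibroblasts. Dner and Dlk2 therefore do not stand for all such ligands. Markers of neurons and glia are the values to set beside Dner. The 7 neuronal markers with a row summed to 5.57 RPKM in SKPs and 6.19 in fibroblasts, with 1 of 2 expressed markers higher (Nefl) and 1 lower (Tubb3). The 9 Schwann cell and glial markers summed to 5.04 RPKM in SKPs and 11.8 in fibroblasts, with 1 of 7 expressed markers higher and 5 lower. The part of such cells in the level of Dner was not tested.

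**Figure D3:**
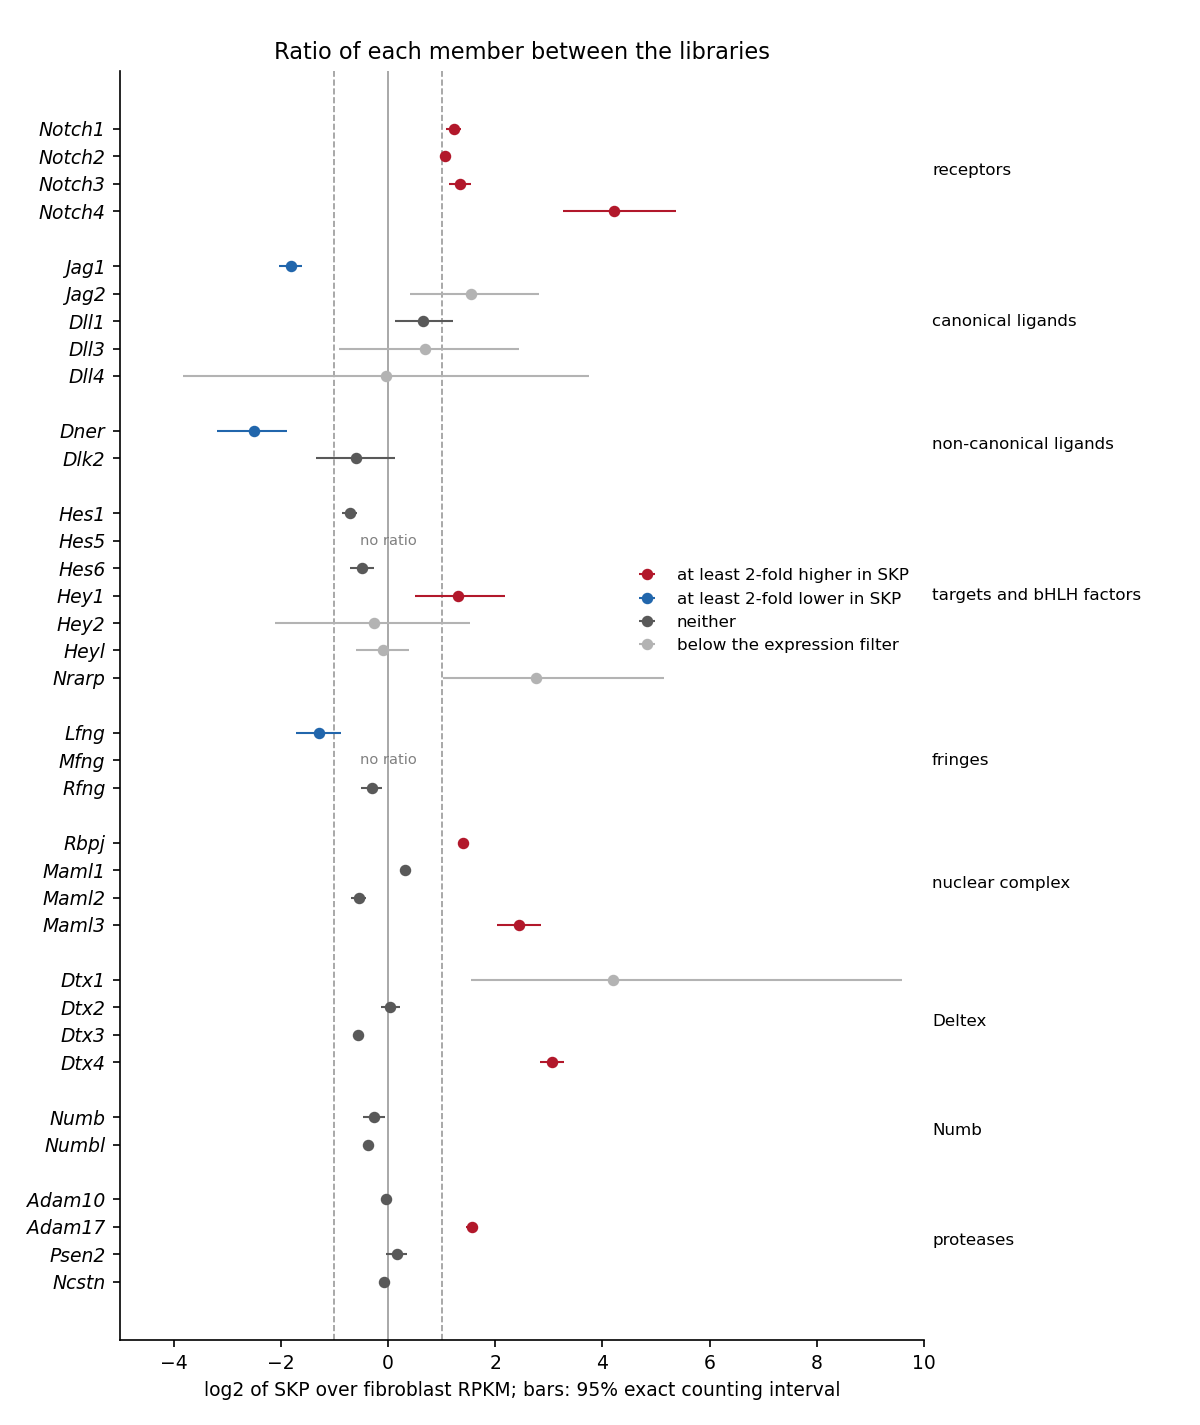
Log2 of SKP over fibroblast RPKM (horizontal axis) for each member, with 95% exact counting intervals as bars, coloured by call, a solid line at equality and dashed lines at 2-fold. Notch4, Dtx4 and Maml3 lie farthest to the right among expressed members and Dner farthest to the left, and the grey members below the filter have the widest intervals.

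Nuclear effectors came next. Rbpj, the DNA-binding protein of the pathway, had 7150 reads in SKPs and 2634 in fibroblasts. At 68.1 RPKM against 25.8 it stood 2.64-fold above the fibroblast level (2.52 to 2.76), and it ranked 1002 of 12053 expressed genes there and 2886 in fibroblasts. It was the most abundant of the 35 members in the SKP library, whereas nicastrin (Ncstn) held that place in fibroblasts.

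The Mastermind-like coactivators, which recruit acetyltransferases to the complex, did not move together. Maml3 had 334 reads in SKPs and 60 in fibroblasts so that 2.71 RPKM stood against 0.50, a 5.41-fold difference (4.10 to 7.24). Maml1 had 19.5 RPKM in SKPs and 15.7 in fibroblasts, a ratio of 1.25 (1.17 to 1.33). Maml2 had 5.25 RPKM in SKPs and 7.68 in fibroblasts and was 1.46-fold lower in the SKP library (1.32 to 1.62, fibroblast over SKP). Maml1 was the most abundant coactivator in each library, followed by Maml2 and Maml3, and each step of that order was apart by its interval. Maml3 took 9.84% ± 0.514 of the summed coactivator RPKM in SKPs and 2.10% ± 0.268 in fibroblasts, and Maml2 took 19.1% ± 0.683 and 32.2% ± 0.895 (counting SE).

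Targets are the readout by which Notch activity is usually followed at the RNA level. Hes1, a bHLH repressor, had 736 reads in SKPs and 1176 in fibroblasts, or 26.1 RPKM against 43.0, and was 1.64-fold lower in the SKP library (1.5 to 1.81, fibroblast over SKP). Hes6, a bHLH protein known to counteract Hes1, had 11.4 RPKM in SKPs and 16.0 in fibroblasts and was 1.40-fold lower (1.2 to 1.64). The abundant bHLH genes were therefore slightly lower in the library with the higher receptor levels, without reaching 2-fold.

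The Hey genes, which encode repressors known from vessels and heart, were low in both libraries. Hey1 had 46 reads in SKPs and 18 in fibroblasts, at 1.10 RPKM against 0.442, a 2.48-fold difference (1.41 to 4.55). Heyl had 70 reads in SKPs and 73 in fibroblasts, a ratio of 0.931 (0.661 to 1.31). Hey2 had 6 reads in SKPs and 7 in fibroblasts, a ratio of 0.833 (0.231 to 2.89). At this depth a difference of 2-fold or somewhat more in either direction was not excluded. Hey1 was thus the target gene called higher, and it passed the filter by a small margin.

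Nrarp encodes an ankyrin-repeat protein that is induced by Notch and limits it. It had 21 reads in SKPs and 3 in fibroblasts, at 0.428 RPKM against 0.0629, a ratio of 6.80 (2.03 to 35.6), and did not reach the expression filter. Hes5, the target typical of neural progenitors, had 0 reads in each library, which allows up to 3 reads in each. Hes1 made up 65.3% ± 1.42 of the summed RPKM of the 7 genes in SKPs and 71.0% ± 1.14 in fibroblasts.

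Promoter sequences of 3 target genes are shown because RBPJ binding near target genes is how Notch is known to act on them, so that the letters searched can be read beside the RNA levels. RefSeq windows from 250 bases before to 50 after the start (build GRCm38.p6, whereas the reads were placed on mm9) were matched for 29 of the 35 members, with 37 windows. Hes1, Hey1, Heyl, Mfng, Dtx3 and Dtx4 were not matched. They were searched on both strands for GTGGGAA, for the shorter TGGGAA that lies within it, and for TGTGAGAA. Capitals mark GTGGGAA or TGGGAA, or either read from the other strand (TTCCCAC and TTCCCA). Hes5, Hey2 and Nrarp are targets, and Lfng was chosen after its values were seen, as the called member with GTGGGAA. Their positions are chr4:154960673-154960972 (+ strand) for Hes5, chr10:30842734-30843033 (- strand) for Hey2, chr2:25180508-25180807 (+ strand) for Nrarp and chr5:140607091-140607390 (+ strand) for Lfng.
Hes5: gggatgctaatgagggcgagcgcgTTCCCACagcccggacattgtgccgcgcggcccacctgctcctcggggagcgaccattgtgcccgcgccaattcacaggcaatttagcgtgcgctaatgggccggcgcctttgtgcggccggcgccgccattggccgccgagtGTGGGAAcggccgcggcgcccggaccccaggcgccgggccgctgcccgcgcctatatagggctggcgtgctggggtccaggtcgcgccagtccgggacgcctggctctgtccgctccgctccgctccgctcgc
Hey2: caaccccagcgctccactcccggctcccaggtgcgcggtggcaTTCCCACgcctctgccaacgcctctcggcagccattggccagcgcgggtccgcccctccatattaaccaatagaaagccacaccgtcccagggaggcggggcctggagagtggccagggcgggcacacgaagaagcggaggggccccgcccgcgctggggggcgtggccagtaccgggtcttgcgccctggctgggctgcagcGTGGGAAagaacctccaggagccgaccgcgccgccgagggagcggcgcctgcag
Nrarp: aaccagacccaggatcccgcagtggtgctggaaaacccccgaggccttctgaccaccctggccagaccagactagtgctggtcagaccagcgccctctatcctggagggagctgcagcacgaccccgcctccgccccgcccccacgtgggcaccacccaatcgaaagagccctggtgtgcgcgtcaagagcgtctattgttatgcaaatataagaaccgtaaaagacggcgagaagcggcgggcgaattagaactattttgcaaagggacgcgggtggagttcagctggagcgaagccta
Lfng: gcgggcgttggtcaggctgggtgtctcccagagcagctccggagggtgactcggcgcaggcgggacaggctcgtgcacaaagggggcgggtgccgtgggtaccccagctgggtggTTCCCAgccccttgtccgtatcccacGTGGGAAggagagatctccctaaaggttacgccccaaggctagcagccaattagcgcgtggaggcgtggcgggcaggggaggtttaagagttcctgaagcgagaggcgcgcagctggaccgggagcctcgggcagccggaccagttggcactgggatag

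Hes5 and Hey2 each held GTGGGAA in both orientations, 2 matches per window, and Hes5 had 0 reads and Hey2 under 10 reads in each library. In Hes5 the forward match began at position -83 from the start, and in Hey2 the forward match spanned the start. Lfng, lower in the SKP library, held 1 match of GTGGGAA and a second TGGGAA on the other strand. The window of Nrarp, the target gene with the highest ratio, held none of the 3 motifs, which says only that these letters are not in that window. The 2 windows of Hes6, not printed, held none either. Of the 37 member windows 4 (of Hes5, Hey2, Lfng and Psen2) held GTGGGAA, beside 6.38% of all 32851 windows of the same length. TGGGAA was in 9 of the 37, from 8 genes, beside 25.6% of all. The median share of G and C was 63.3% in the member windows and 52.7% in all, so the sets were not matched in base make-up. TGTGAGAA was in 0 member windows and in 1.35% of all. A match is a description of the letters and not a shown binding site.

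Fringes add N-acetylglucosamine to O-fucose on Notch and so change which ligands a receptor answers to. Lfng had 68 reads in SKPs and 162 in fibroblasts, or 1.56 RPKM against 3.83, and was 2.45-fold lower in the SKP library (1.84 to 3.31, fibroblast over SKP). Rfng, the most abundant fringe in both, had 9.44 RPKM in SKPs and 11.7 in fibroblasts, 1.24-fold lower (1.08 to 1.42). Mfng had 3 reads in SKPs and 0 in fibroblasts, for which no fold is given. Rfng made up 85.1% ± 1.64 of the summed fringe RPKM in SKPs and 75.3% ± 1.70 in fibroblasts (counting SE).

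**Figure D4:**
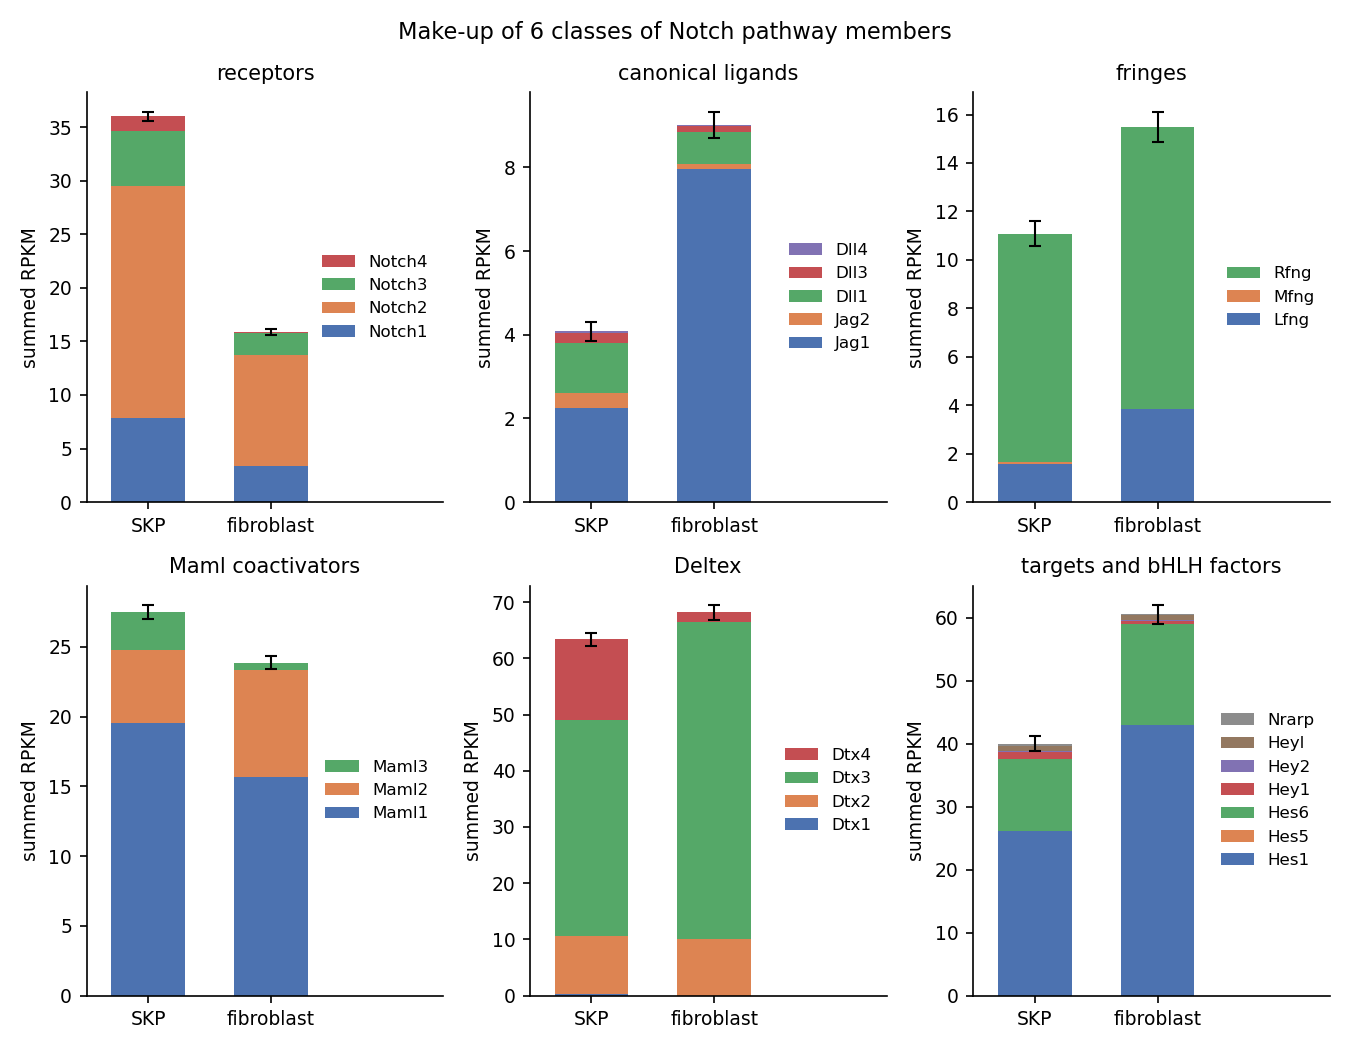
Summed RPKM (vertical axis, from 0) of 6 classes of members in the SKP library (left bar) and the fibroblast library (right bar), split by gene, with the counting SE of each sum as an error bar. The receptor bar is taller in SKPs (36.0 against 15.9 RPKM) and the canonical ligand bar in fibroblasts (4.08 in SKPs against 9.02). Dtx4 fills 22.7% of the Deltex bar in SKPs against 2.53% in fibroblasts.

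Deltex proteins are ubiquitin ligases that act on Notch traffic. Dtx4 had 1574 reads in SKPs and 184 in fibroblasts, or 14.4 RPKM against 1.73, and was 8.31-fold higher (7.13 to 9.73). Dtx3 was the most abundant of the family at 38.3 RPKM in SKPs and 56.4 in fibroblasts and was 1.47-fold lower in the SKP library (1.37 to 1.57). Dtx2 had 10.4 RPKM in SKPs and 10.1 in fibroblasts, and the interval of its ratio (1.03, 0.911 to 1.17) included equality. Dtx1 had 19 reads in SKPs and 1 in fibroblasts, a ratio of 18.5 with a wide interval (2.93 to 767), and lay below the filter. The order of the family differed: Dtx4 stood above Dtx2 in SKPs and below it in fibroblasts, and both steps were apart by their intervals. Dtx4 took 22.7% ± 0.591 of the summed Deltex RPKM in SKPs and 2.53% ± 0.189 in fibroblasts, while the sum itself was 63.4 ± 1.16 RPKM against 68.2 ± 1.32 (counting SE).

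Numb and Numbl encode endocytic adaptors that hold Notch in check. Numb had 10.3 RPKM in SKPs and 12.4 in fibroblasts, a ratio of 0.836 (0.728 to 0.961). Numbl had 38.3 RPKM in SKPs and 49.8 in fibroblasts, a ratio of 0.768 (0.723 to 0.814). Both were a little lower in the SKP library and under 2-fold apart.

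The sheddases differed from each other. Adam17, which also sheds TNF and several EGF-family ligands, had 3083 reads in SKPs and 1016 in fibroblasts, or 36.9 RPKM against 12.5, and was 2.95-fold higher (2.74 to 3.17). Adam10, the sheddase of ligand-bound Notch, had 2746 reads in SKPs and 2743 in fibroblasts, at 31.5 RPKM against 32.4, and the interval of its ratio (0.972, 0.922 to 1.03) lay close around equality. Adam17 was therefore above Adam10 in the SKP library and below it in fibroblasts.

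Of the gamma-secretase genes, Ncstn had 59.9 RPKM in SKPs and 63.2 in fibroblasts, a ratio of 0.947 (0.902 to 0.994). The catalytic subunit gene Psen2 had 12.2 RPKM in SKPs and 10.9 in fibroblasts, a ratio of 1.12 (0.978 to 1.28). Ncstn shares 195 exonic bases with Copa on the opposite strand and Adam17 shares 311 with Iah1 in the GENCODE M21 annotation. The sources used here do not say whether counting used strand, so some of their reads may belong to those neighbours. Copa had 13328 reads in SKPs and 12536 in fibroblasts, more than Ncstn in either, while Iah1 had 277 and 271, fewer than Adam17 in either. Dlk2 shares 51 exonic bases with Abcc10 on the opposite strand, which had 194 reads in SKPs and 204 in fibroblasts, more than Dlk2 in either. Further members, among them Notch1, Notch2, Notch3, Dll1 and Nrarp (2051 bases), share exonic bases with neighbours that had 0 counted reads. Whether those neighbours were in the annotation used for counting is not stated, so their reads may lie in the members.

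The 14 expressed members called neither had log2 ratios from -0.72 to 0.66. For 10 of them the interval excluded equality, so that at this depth counting error alone does not cover the difference, but a difference between single cultures of this size has no replicate check. In total 13 members had 10 RPKM or more in both libraries.

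Coverage, the share of a gene's length under reads as deposited by the authors, gave a second view of the members. Among the 29 members with 20 reads or more in the SKP library it ranged from 24.0% to 99% with a median of 91.1%, and among the 25 such members in fibroblasts from 31.0% to 98.8% with a median of 92.5%. It lay below what even placement of the reads would give for 28 of 29 members in SKPs and for 25 of 25 in fibroblasts. The shortfall reached 14.5 percentage points in SKPs and 17.4 in fibroblasts, where Notch3 had 66.5% covered against 83.9% with even placement. Reads of the abundant members thus lay over most of the gene in both libraries.

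**Figure D5:**
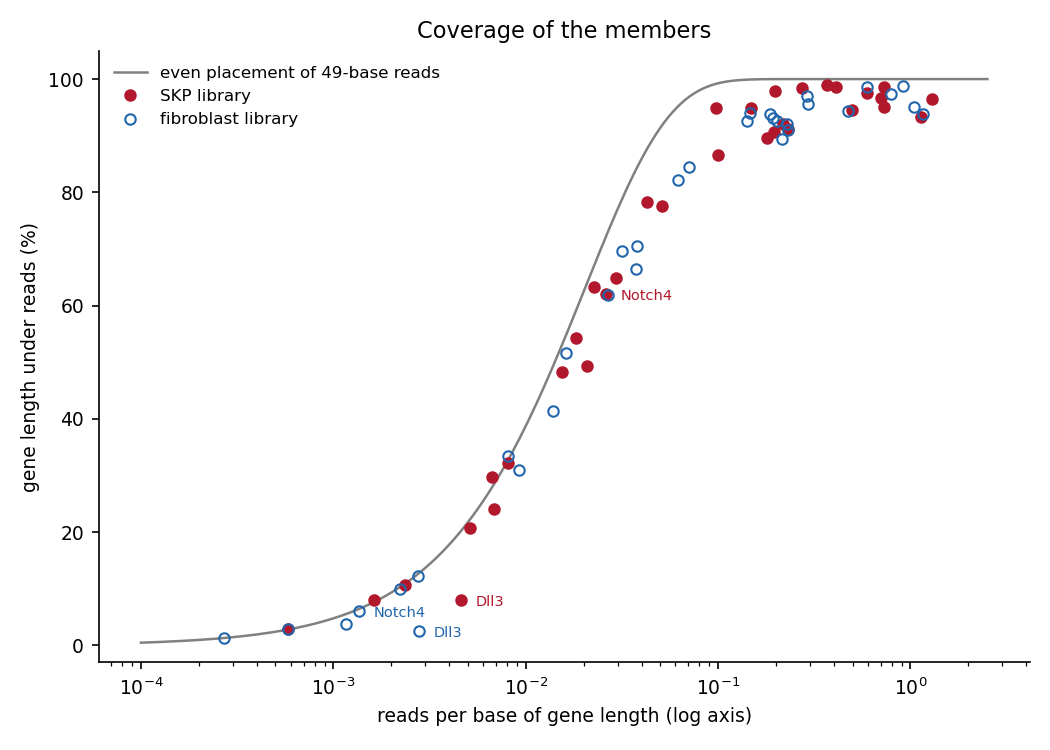
Share of gene length under reads in percent (vertical axis) against reads per base of gene length on a log axis (horizontal) for each member with a read, filled for the SKP library and open for the fibroblast library, with a line for even placement of 49-base reads. Most points lie on or a little under the line, and Dll3 lies well under it in both libraries, at 8.04% in SKPs and 2.54% in fibroblasts.

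The rest of the pathway was followed in a list of 62 further genes, all of which had a row, 1 through its gene ID. Of the 52 expressed, 6 (11.5%) were called higher in SKPs, 3 (5.77%) lower and 43 neither, shares near the 12.1% and 6.41% of all expressed genes. Of the further gamma-secretase genes, Aph1a had 38.4 RPKM in SKPs and 40.0 in fibroblasts and Psenen 106.0 and 106.3, and both were called neither. These genes, and the sugar-adding enzyme genes called neither below, were chosen after their values were seen. Pofut1, which adds the O-fucose that fringes extend, had a ratio of 1.81 (1.68 to 1.95) and was not 2-fold apart.

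Among the other enzymes that add sugars to Notch, Poglut1, Gxylt1 and Xxylt1 had ratios of 1.00, 0.971 and 1.24 and were called neither, while 1 was called higher and 1 lower. Gxylt2, which adds xylose to O-glucose on Notch EGF repeats, had 55.7 RPKM in SKPs and 12.4 in fibroblasts, a 4.49-fold difference (4.04 to 5.01). Eogt, which adds N-acetylglucosamine to EGF repeats, was 2.54-fold lower at 3.85 RPKM against 9.78 (2.18 to 2.97, fibroblast over SKP). The other higher genes were Dlk1, an EGF-repeat relative of Dlk2 (196 RPKM against 1.85, 106-fold), the bHLH repressor gene Bhlhe41 (5.04-fold), the microfibril gene Mfap2 (4.71-fold), the tetraspanin gene Tspan5 (2.27-fold) and the Groucho corepressor gene Tle4 (2.11-fold). The other lower genes were the matricellular gene Ctgf (21.0-fold) and the kinase gene Cdk8, known to phosphorylate the Notch intracellular domain (2.06-fold). Postn (704 RPKM in SKPs and 665 in fibroblasts), a matricellular protein gene, and Aes (224 and 354), a short Groucho-family gene, were among the most abundant of the list in both libraries.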

How the data were processed

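Reads of 49 bases from 2 libraries were analysed from the processed tables. Per the file headers, the deposited gene tables hold a raw read count for each gene, under a heading that calls the reads unique. Its total exceeds the reads with a single match by 4370357 in the SKP library and 3924587 in the fibroblast library. The handling of multi-position reads and of overlapping genes behind that excess was not tested, so values of paralogs may be affected. The RPKM values were computed by the authors from these counts, the gene length and the counted total, per the file headers, and 99.96% of values matched that formula within 0.1%. The deposited coverage and the shares of mapped reads are in percent, per the file headers. The authors' comparison table gives a log2 ratio and a p-value per gene, and its filtered version holds genes with an absolute log2 ratio of 1 or more and an FDR under 0.001, as tested on the file. Per the submitters' processing notes the genome build was mm9. The sources used here name no aligner, counting tool or annotation.

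The SKP over fibroblast ratio and its 95% exact (Clopper-Pearson) counting interval were computed with scipy 1.17.1, numpy 2.4.6 and pandas 2.3.3 under Python 3.11.15, and matplotlib 3.10.9 drew the figures. A single read on 1 kb of gene corresponds to 0.0528 RPKM in SKPs and 0.0543 in fibroblasts. A count of 0 reads was read as allowing up to 3 reads, and this floor entered no ratio. For a member with 0 reads in a library, no fold is given where the other library held 3 reads or fewer. PCR duplicates are not independent molecules. The counting SE of a sum or share was derived from the Poisson variance of the reads. The interval and call were run on simulated Poisson counts, the model that the interval assumes. That run therefore checks the code and not duplicates or variation between cultures. Groups came from the cell type in the labels. All members were named by rule, and of the further pathway genes those at least 2-fold apart or among the 3 highest in RPKM, with a few more chosen after their values were seen. The members and lists were chosen with earlier results of these data known. Library scaling, the log scale, the low-value filter, the fold limit, the interval and the call rule were varied.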

Additional observations from a re-analysis of the deposited data

How the results depend on the processing

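With 1 library per cell type no replicate could be left out. No paired analysis was possible because each group has 1 library. Scaling by the median of ratios, by TMM or by the total reads of the mapping table shifted all log2 ratios by 0.01, -0.02 and 0.07, and under each of these 9 members were higher in the SKP library and 3 lower, the same genes. At 4-fold 3 members were higher (Dtx4, Maml3 and Notch4) and 1 was lower (Dner), and with RPKM of at least 5 only 1 was lower (Jag1) while 6 were higher. On the log2(RPKM + 1) scale 7 were higher and 2 lower, with Notch2, Hey1 and Lfng no longer called. Without the filter 12 were higher, Jag2, Nrarp and Dtx1 being added. By the authors' deposited filtered table, which holds 10.5% of the 17431 genes with a read as higher in SKPs and 4.8% as lower, 10 members were higher, with Nrarp and Dtx1 and without Hey1, and 3 were lower. At 1.5-fold 10 members were higher, with Dll1 added, and 4 were lower, with Hes1 added. Of the other pathway genes 7 were lower at 1.5-fold and 1 at 4-fold. The median log2 ratio of the members stayed between -0.04 and 0.07 under the alternatives run, and no called member changed direction. Shares within a class do not depend on library scaling. Depth limits Dll3, Dll4, Hey2, Mfng, Nrarp, Dtx1 and Hes5 most.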
